A study of Glycine max with 24 samples.

Results

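Glycinin, the 11S legumin-type globulin, is one of the main storage proteins of the soybean seed. This account covers the 9 probesets of the soybean array that report its genes among 37694 probesets that are not array controls. They comprise 7 probesets that the study's additional files describe as glycinin and 2 more that carry a glycinin gene symbol (GY and a number) in the array's gene table. Together they stand for 6 subunit genes, G1 (GY1), G2 (GY2), G3 (GY3), G4 (GY4), G5 (GY5) and G7 (GY7).

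The study profiled developing seed of a near-isogenic pair of soybean lines that contrast in seed protein. LoPro (LoProt in the sample labels) retained the Glycine max allele at the protein QTL of linkage group I. HiPro (HiProt in the labels) carried the high protein allele of Glycine soja PI468916 there, so the lines are a single pair and a difference between them belongs to the pair. Whole seed was sorted by weight into stage 1 (25 to 50 mg), stage 2 (above 50 to 100 mg), stage 3 (above 100 to 200 mg) and stage 4 (above 200 to 300 mg). Each of the 8 groups of line and stage held 3 arrays, 24 in all, each made from seed pooled over several chamber-grown plants. The methods place the 4 stages of a replicate on the same plants, so that the arrays trace 6 plant pools. Both lines grew under the same chamber conditions and were given the same Bradyrhizobium inoculant.

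In soybean seed, glycinin precursors are made on the endoplasmic reticulum of embryo cells, folded and assembled there with the help of chaperones and disulfide isomerases, and carried to protein storage vacuoles. A vacuolar processing enzyme then cuts each precursor into an acidic and a basic chain, which stay joined by a disulfide bond. The G1, G2 and G3 subunits are close relatives (group I), G4 and G5 form a second class (group II), and G7 is a further, divergent member of the family.

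The probesets are named here by subunit. Where a subunit had 2 probesets, "shared" marks the one whose identifier ends in _s_at, a suffix for probes that match several transcripts, and "single" marks the one ending in _at. The members are G1 shared (Gma.1897.1.S1_s_at), G1 single (Gma.1897.1.S1_at), G2 shared (Gma.1857.1.S1_s_at), G2 single (Gma.1857.1.S1_at), G3 (Gma.10058.1.S1_at), G4 shared (Gma.16820.1.S1_s_at), G4 single (Gma.1812.1.S1_at), G5 (Gma.8205.1.S1_at) and G7 (Gma.8442.1.S1_at). G1 single and G2 shared are the pair that was added by symbol. The other 7 come from lists of probesets that changed on these same arrays, so their rises are no independent evidence of a direction. Signal from similar subunits on 1 probeset cannot be told apart from that of the named subunit, and this holds most for the shared probesets of group I.

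In the Glyma1 gene models that the study paired with its probesets, G1 lay on chromosome 3 (Glyma03g32030), both G4 probesets on chromosome 10 (Glyma10g04280), G5 on chromosome 13 (Glyma13g18450), and G3 (Glyma19g34780) and G7 (Glyma19g34770) on chromosome 19. None of these is on chromosome 20, where the QTL was mapped. In the RefSeq annotation of Glycine_max_v4.0, GY7 and GY3 were neighbours with 0 protein-coding genes between them, and so were GY2 and GY1. Both G4 probesets are annotated with 2 Entrez genes under the symbol GY4, so G4 may stand for more than 1 gene.

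The values are signals of the array software, on a linear scale, scaled by array to a common trimmed mean. Over the 24 arrays the median signal lay between 198 and 229 and the brightest probeset between 14547 and 34480. All 9 members were tested, with no filter on low values. A change was called where limma gave a Benjamini-Hochberg adjusted p under 0.05 over the 37694 probesets tested and the fold change was at least 1.5. Level differences between probesets were not tested, since brightness depends on the probes. The array labelled LoPro stage 1, replicate 3, stood apart from the other 2 of its group for these genes. The glycinin calls that depend on that array are given with and without it.

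At stage 4, the heaviest seed, G1, G2, G4 and G5 were among the brightest probesets of the array in both lines, G3 was close behind, and G7 was near the middle of the array. By brightness on the 6 arrays of stage 4, the G2, G4 and G5 probesets ranked between 5 and 39 of 37694, G1 between 54 and 111, and G3 between 87 and 325. G7 ranked between 10013 and 15998, at percentiles of 57.6 to 73.4. The family thus held probesets of very unequal brightness, a description of the probesets and not of transcript amounts.

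The stage 4 signal of G2 shared was 23655 ± 1238 in LoPro and 25610 ± 2656 in HiPro (SD, n = 3). That of G4 shared was 23977 ± 977 in LoPro and 25701 ± 2591 in HiPro, and that of G5 was 21564 ± 1606 and 23926 ± 4069. The arrays of the lines overlapped for each of these. G2 single stood at 22002 ± 1001 in LoPro and 24572 ± 3332 in HiPro, G4 single at 21593 ± 1307 and 23935 ± 3185, G1 shared at 16897 ± 1046 and 18507 ± 2030, and G1 single at 18364 ± 2455 and 20141 ± 3669. In these 7 probesets the HiPro mean lay above the LoPro mean by less than 1 SD of the HiPro arrays. The LoPro arrays spread less, and the lead was more than 1 SD of the LoPro arrays in all but G1 single.

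The G3 subunit gene was the exception among the bright probesets. Its stage 4 signals were 11066, 13560 and 9483 in LoPro and 15191, 16035 and 17702 in HiPro. Every HiPro array lay above every LoPro array, at stage 3 as well as at stage 4. Of all probesets, 3.06% had HiPro higher without overlap at stage 4, and 5.43% at stage 3. G7 had the opposite order at stage 4, with 481, 555 and 386 in LoPro and 377, 285 and 327 in HiPro, again without overlap, as for 5.13% of all probesets. Neither difference was called: G3 was 0.53 higher in HiPro on the log2 scale (95% interval -0.71 to 1.78, limma adjusted p = 0.9999) and G7 was 0.52 lower (-1.12 to 0.08, unadjusted p = 0.087, adjusted p = 0.9999).

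**Figure D1:**
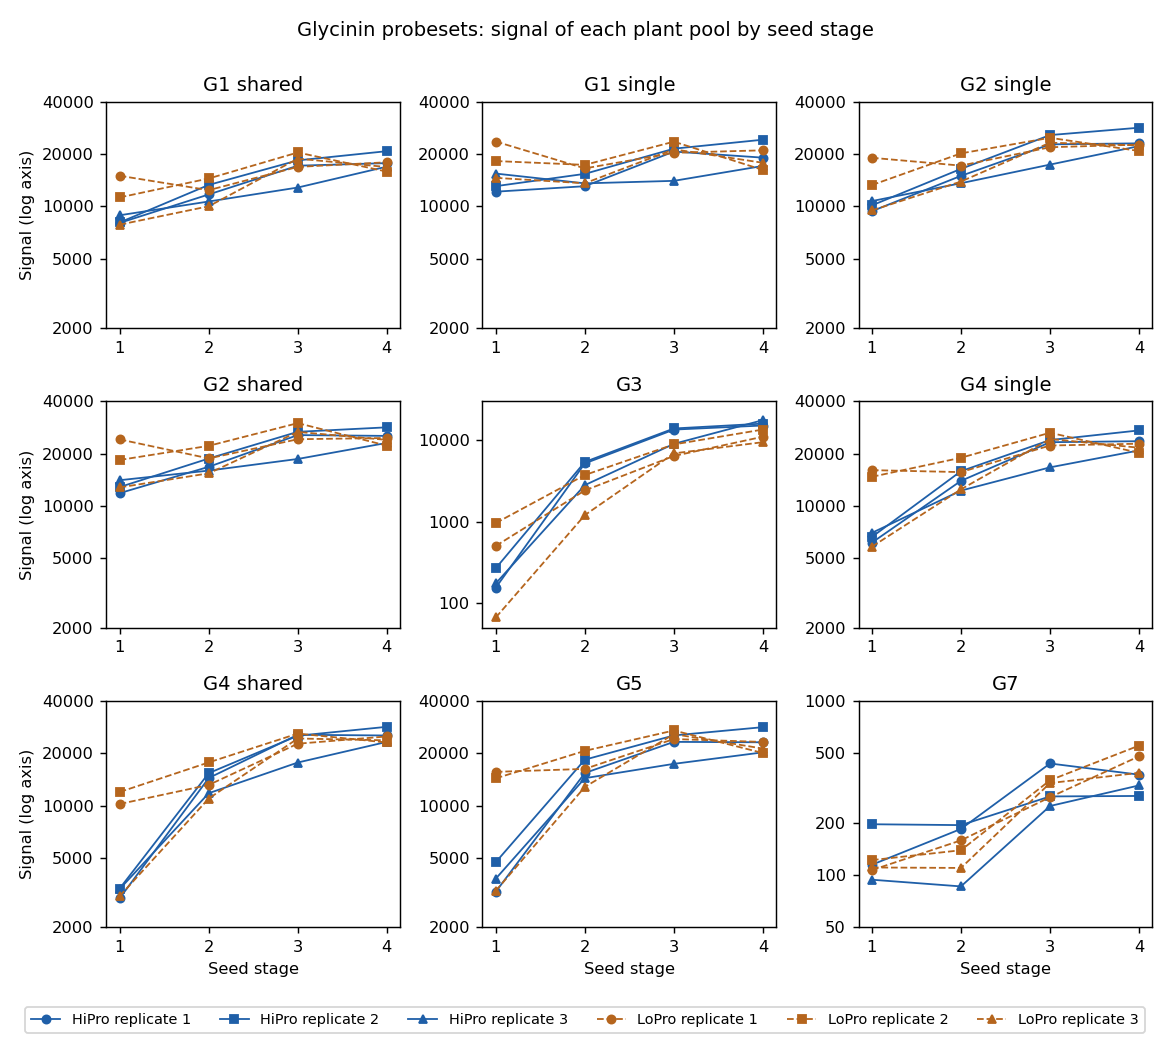
Signal (log axis, array units, with a different range in the G3 and G7 panels) of the 9 glycinin probesets at seed stages 1 to 4, with 1 line per plant pool, LoPro dashed and HiPro solid. G3 rose from at most 962 to at least 9483 in every pool, G7 stayed at or below 555, and LoPro replicates 1 and 2 lay above the other pools at stage 1 for G4 and G5.

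Over the whole interval from stage 1 to stage 4, most glycinin probesets rose, and they did so by very unequal amounts. Of the 9 probesets, 7 were called higher at stage 4 than at stage 1 in LoPro and 8 in HiPro, where 11.3% and 10.7% of all probesets were called higher and 10.4% and 13.5% lower. No member was called lower. The median log2 change over the 9 probesets was 0.95 for LoPro and 1.36 for HiPro, against 0.08 and -0.01 over all probesets. Without the array LoPro stage 1, replicate 3, LoPro had 3 called (G3, G4 shared and G7) and HiPro still had 8. The share of all probesets called in that fit is not given here.

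G3 rose most. Its stage 1 signals were 504, 962 and 66.5 in LoPro and 155, 268 and 175 in HiPro, and by stage 4 the lowest pool stood at 9483. The rise was 5.14 on the log2 scale (SE 0.60, 35.3-fold) in LoPro and 6.40 (SE 0.60, 84.2-fold) in HiPro, with limma adjusted p = 2.2e-06 and 1.4e-07. Without LoPro stage 1, replicate 3, the array at 66.5, the LoPro rise was 4.01 (SE 0.38, adjusted p = 7.8e-07). G3 was called in HiPro under all 40 alternatives and in LoPro under 39 of 40, the exception being the methods' t-test (adjusted p = 0.075).

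The group II genes rose by intermediate amounts. G4 shared had stage 1 signals of 10232, 11991 and 3020 in LoPro and 2934, 3339 and 3317 in HiPro, and its log2 rise was 1.74 in LoPro (SE 0.32) and 3.01 in HiPro (SE 0.32), with adjusted p = 0.00035 and 6.3e-07. G5 started at 15660, 14372 and 3239 in LoPro and at 3200, 4733 and 3804 in HiPro. Its rise was 1.26 (SE 0.37, adjusted p = 0.015) in LoPro and 2.62 (SE 0.37, adjusted p = 1.8e-05) in HiPro. For both genes, LoPro replicates 1 and 2 were already high at stage 1 while LoPro replicate 3 lay with the HiPro arrays. G4 single followed with 0.95 in LoPro and 1.85 in HiPro (SE 0.26 each, adjusted p = 0.0090 and 1.6e-05). Without LoPro stage 1, replicate 3, the rise of G4 shared in LoPro was 1.11 and was still called, and those of G4 single and G5 were not.

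The G1 and G2 probesets, bright from the start, rose least. G1 shared was 0.62 higher at stage 4 in LoPro and 1.15 higher in HiPro, and G2 single 0.72 and 1.28 higher, all 4 called. G2 shared was called in HiPro (0.98 higher, SE 0.19, adjusted p = 0.00050) and not in LoPro (0.40, SE 0.19, adjusted p = 0.12). G1 single was called in neither line, with -0.02 in LoPro (adjusted p = 0.96) and 0.56 in HiPro, which passed on its adjusted p (0.027) but was below 1.5-fold. These changes in the brightest probesets depended on the scaling of the arrays. Under quantile normalization, which gives every array the same brightest values, none of the 4 group I probesets with G1 or G2 in their name was called in either line, and G1 single was 0.38 lower at stage 4 in LoPro and 0.41 lower in HiPro, opposite in sign to its HiPro value above. The 5 called under that setting in each line were G3, both G4 probesets, G5 and G7, with no share of all probesets given for it.

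G7 was dim throughout and rose late. Its signals were 106, 122 and 110 in LoPro at stage 1 and 114, 196 and 93.8 in HiPro. The rise to stage 4 was 2.06 on the log2 scale in LoPro (SE 0.29, 4.16-fold, adjusted p = 1.9e-05) and 1.36 in HiPro (SE 0.29, 2.56-fold, adjusted p = 0.0011). G7 thus rose by more than G5 in LoPro and by less in HiPro, from signals below the median of the array.

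By stage 3, before the last step, 8 of the 9 probesets were already called higher than at stage 1 in each line, all but G1 single, where 7.49% of all probesets were called higher in LoPro and 5.96% in HiPro. The LoPro count was 5 without LoPro stage 1, replicate 3, a fit for which no share of all probesets is given.

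The steps between neighbouring stages set out when each gene rose. From stage 1 to stage 2, G3 was the only member called in LoPro, where 0.305% of all probesets were called higher, and G3, G4 single, G4 shared and G5 were called in HiPro, where the share was 0.56%. G3 passed from 504, 962 and 66.5 to 2420, 3743 and 1204 in LoPro, a rise of 2.80 (SE 0.60, adjusted p = 0.040), and from 155, 268 and 175 to 5202, 5422 and 2813 in HiPro, a rise of 4.47 (SE 0.60, adjusted p = 0.00096). The LoPro call was held under 17 of 40 alternatives, with adjusted p from 0.0033 to 0.70 over them, and it was lost without LoPro stage 1, replicate 3 (rise 1.67, adjusted p = 0.078).

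In HiPro, G4 shared rose from 2934, 3339 and 3317 to 14431, 15398 and 11805 between stages 1 and 2, by 2.11 (SE 0.32, adjusted p = 0.0024). G5 rose from 3200, 4733 and 3804 to 15424, 18409 and 14403, by 2.05 (SE 0.37, adjusted p = 0.0083), and G4 single by 1.08 (SE 0.26, adjusted p = 0.046), a call that was held under 14 of 40 alternatives, against 35 to 37 for the other 3 probesets. For all 3 probesets, the HiPro arrays of stage 2 lay above those of stage 1. Such a separation was seen for 7 of the 9 probesets in HiPro, against 7.92% of all probesets, and for 1 of the 9 (G3) in LoPro, against 6.97%. The 4 HiPro calls fell to 0 without HiPro replicate 1 at all stages, to 0 without HiPro replicate 2 at all stages, to 2 without HiPro replicate 3 at all stages and to 2 without the array HiPro stage 2, replicate 2. Shares of all probesets in these fits are not given here.

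From stage 2 to stage 3, the arrays of all 9 probesets in LoPro moved up without overlap, as did 17.6% of all probesets, and 5 of the 9 did so in HiPro, against 13.8%. Fewer passed the test. In LoPro, G1 shared (0.62, adjusted p = 0.036) and G7 (1.26, adjusted p = 0.0071) were called, where 4.68% of all probesets were called higher. In HiPro, G7 alone was called (1.11, adjusted p = 0.037), against 1.13%. With the plant pool as a replicate block in the fit, which compares the stages within a pool, 5 were called in LoPro, with G3 (adjusted p = 0.012), G4 single (0.049) and G4 shared (0.042) joining G1 shared and G7. Without LoPro stage 1, replicate 3, which enters this step only through the shared estimate of the spread, 6 were called in LoPro and 4 in HiPro. This step moved with many single arrays and pools, with counts from 0 to 6 in LoPro and from 0 to 4 in HiPro when each was left out in turn. No share of all probesets is given for the block fit or the fits without an array or pool. A general change in the number of calls therefore cannot be told apart from one of glycinin.

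From stage 3 to stage 4, no member was called in either line, and 0 had an unadjusted p under 0.05, where the shares of all probesets called higher were 0.0345% (LoPro) and 0.0133% (HiPro). Over the 9 probesets, log2 changes ran from -0.25 to 0.62 in LoPro and from 0.06 to 0.44 in HiPro. In LoPro, 7 of the 9 had a mean below that of stage 3, and G3 (0.62 higher) and G7 (0.55 higher) were the others. Without overlap of the arrays, G3 and G7 moved up in LoPro (2 of 9, against 8.06% of all probesets), G3 in HiPro (1 of 9, against 6.91%), and G5 moved down in LoPro (1 of 9, against 6.76%).

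To set the order of onset without comparing the brightness of probesets directly, each signal was expressed as a percent of the same pool's stage 4 signal. The measure is not free of brightness. At stage 1, G1 single already ranked between 7 and 11 on the arrays and G2 shared between 8 and 46. A probeset near the top of the scale has little room to rise and can look early, and saturation was not tested. Over the 6 pools at stage 1, G1 single was at 85.8% ± 24.3 (SD), G2 shared at 64.5% ± 21.4, G1 shared at 56.3% ± 17.3 and G2 single at 52.4% ± 18.2. G4 single was at 42.4% ± 22.9, G5 at 33.9% ± 27.6, G7 at 33.4% ± 17.7 and G4 shared at 23.8% ± 17.8, while G3 was at 2.67% ± 2.59. By this measure G3 was lowest in both lines. The place of G7 turned with the line, at 24.2% ± 3.76 in LoPro and 42.6% ± 22.7 in HiPro, where G2 single stood at 41.6% ± 6.31. The HiPro pools of G7 were at 30.3%, 68.7% and 28.7%, so its HiPro mean was raised by replicate 2. The place of the G1 and G2 probesets depended on the scaling, since quantile normalization put G1 single at 132% of its stage 4 signal, G2 shared at 96.6%, G1 shared at 77.1% and G2 single at 76.8%.

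By stage 2 most of the bright genes lay closer together. G5 was at 72.6% ± 15.4 of its stage 4 signal, next to G1 shared at 68.8% ± 11.5 and G2 single at 69.8% ± 14.6. G4 shared (56.2% ± 10.7), G7 (38.2% ± 17.0) and G3 (24.4% ± 9.07) were still lower. At stage 3, G3 was at 70.6% ± 15.4 and G7 at 83.4% ± 22.0, and the other 7 probesets were between 95.3% and 107%.

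Pairs of probesets were compared within pools by the log2 rise to stage 4, with an exact two-sided sign-flip permutation test over the 6 pools, in 72 tests (36 pairs at each of 2 stages). From stage 1, 24 of the 36 pairs had the same order in all 6 pools and so reached an exact permutation p of 0.03125, the smallest this design allows. After Benjamini-Hochberg adjustment over the 72 tests these stood at 0.051, so that 0 pairs passed 0.05. That adjusted value was set by how many tests reached the smallest p, 24 from stage 1 and 20 from stage 2. It therefore gives no verdict on a single pair. From stage 1, G3 kept the same order in all 6 pools against each of the other 8 probesets. Its rise was larger by 3.40 on the log2 scale (SD 0.55) than that of G4 shared, while the rise of G1 single minus that of G3 was -5.50 (SD 1.13). G4 shared and G5 also kept their order in 6 of 6 pools (0.43, SD 0.17), whereas G5 and G7 did not (4 of 6 pools, exact p = 0.72).

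For the subunits with 2 probesets, the rises of the pair differed in size. No pair passed 0.05 after adjustment, which here turned on how many tests reached the smallest p. G1 shared rose by 0.61 more than G1 single on the log2 scale (SD 0.17) from stage 1 to stage 4, G2 single by 0.30 more than G2 shared (SD 0.07), and G4 shared by 0.97 more than G4 single (SD 0.28), each with the same order in 6 of 6 pools (exact permutation p = 0.03125, adjusted 0.051). Which transcripts the probes of each pair detect was not tested.

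**Figure D2:**
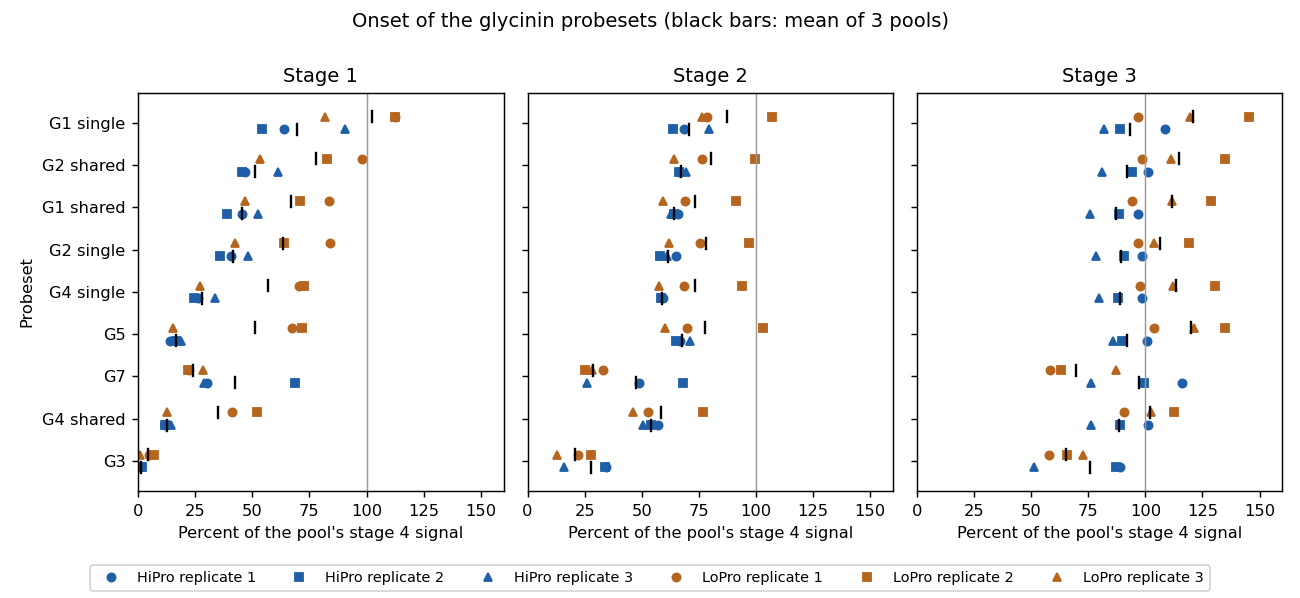
Signal of each glycinin probeset at stages 1, 2 and 3 as a percent of the same plant pool's stage 4 signal, with points for the 3 pools of each line and black bars for their mean. At stage 1 the pools of G3 lay between 0.70% and 7.09% and those of G1 single between 54.0% and 113%, and LoPro replicates 1 and 2 lay to the right of the other pools for G4 and G5.

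In LoPro, the onset values of group II differed widely between pools. At stage 1, G5 stood at 67.3%, 71.5% and 15.2% of its stage 4 signal in LoPro replicates 1, 2 and 3, and at 13.8%, 16.7% and 18.8% in the HiPro pools. G4 shared stood at 40.9%, 51.9% and 12.7% in LoPro and at 11.6%, 11.7% and 14.2% in HiPro. LoPro replicate 3 lay within the HiPro range for both genes, and the other LoPro pools lay far above it.

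HiPro was compared with LoPro at each stage to ask whether the high protein line differed in glycinin transcripts. At stage 1, 8 of the 9 probesets were lower in HiPro, by a median of 0.47 over the 9 on the log2 scale, against a median 0.05 higher over all probesets, and none was called. The arrays of the lines overlapped for every member, where 3.28% of all probesets had HiPro lower without overlap. G5 was 1.22 lower in HiPro (SE 0.37, unadjusted p = 0.0037, adjusted p = 0.97), G4 shared 1.17 lower (SE 0.32, unadjusted p = 0.0016, adjusted p = 0.82) and G4 single 0.76 lower (SE 0.26, unadjusted p = 0.0087, adjusted p = 0.9994). In all, 6 of the 9 had an unadjusted p under 0.05, as did 1627 of all 37694 probesets. The share called was 0.0159% either way. G7 was the probeset that was not lower, at 0.18 higher (SE 0.29).

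The LoPro array that stood apart made these stage 1 differences smaller for the 8 probesets other than G7. Against the HiPro mean of stage 1, the 8 probesets other than G7 were higher by a median of 1.10 on the log2 scale in LoPro replicate 1 and by 0.84 in replicate 2, and in replicate 3 the median difference was -0.09. Without replicate 3, 4 probesets were called lower in HiPro. They were G5 (1.96 lower, adjusted p = 7e-05), G4 shared (1.80 lower, adjusted p = 7e-05), G4 single (1.22 lower, adjusted p = 0.0041) and G3 (1.85 lower, adjusted p = 0.043). Leaving out that plant pool at all stages gave the same 4. The share of all probesets called in these fits is not given here, so the 4 have no background beside them. The choice of which array to leave out was made with its values in view, and under the other 38 alternatives none of the 4 was called.

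**Figure D3:**
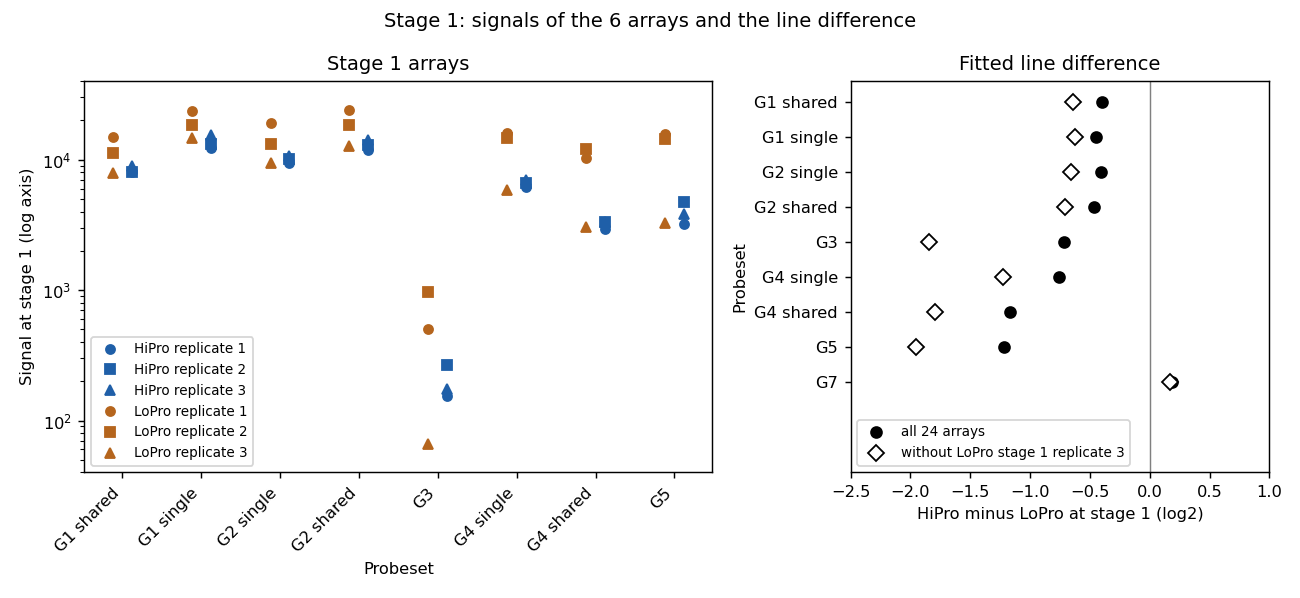
Left, signal (log axis) of the 8 glycinin probesets other than G7 on the 6 arrays of stage 1. Right, the fitted HiPro minus LoPro difference (log2) at stage 1 with all 24 arrays (filled) and without LoPro stage 1, replicate 3 (open), which moves G5 from -1.22 to -1.96 and leaves G7 near 0.

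The low LoPro array was not low over all probesets, but its brightest signal was the lowest of its group. Of all probesets, 36.1% had their lowest LoPro stage 1 signal in replicate 3, against 8 of the 9 glycinin probesets. The brightest probeset of each stage 1 array stood at 27717, 21021 and 17642 in LoPro replicates 1, 2 and 3, and at 14547, 15057 and 17712 in HiPro. The part of a lower top of the array in the glycinin values was not tested. Other seed filling genes moved with glycinin across these arrays. The summed signal of 6 oleosin-type probesets, genes of the oil body coat that mark storage cells of the embryo, was 28239, 30800 and 16776 in LoPro and between 14005 and 14988 in HiPro, and all 6 had their lowest LoPro value in replicate 3. The 8 probesets of beta-conglycinin, the 7S storage globulin, summed to 47677, 31643 and 18971 in LoPro and to 16198 to 20186 in HiPro, with 7 of 8 lowest in LoPro replicate 3. The 7 seed coat probesets summed to 47553, 39173 and 46371 in LoPro and to 32447 to 39751 in HiPro, with 2 of 7 lowest in replicate 3. The brightest, SCB1, a seed coat BURP domain protein, was 1 of these (26561, 19220 and 16269 in LoPro), and the 5 that were not lowest were highest of the LoPro arrays in replicate 3, among them ANR1, anthocyanidin reductase (3376, 2890 and 5415), and ANS2, anthocyanidin synthase (7870, 6601 and 9805). No marker of these lists was at 0. The part of tissue make-up, or of where within the 25 to 50 mg class a pool lay, in the stage 1 values was not tested, and in whole seed fewer cells that make glycinin cannot be told apart from less transcript per cell.

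At stages 2, 3 and 4, the lines were closer. No member was called or had an unadjusted p under 0.05, and the shares of all probesets called either way were 0.0133%, 0.0345% and 0.061%. The 7 bright probesets other than G3 differed between the lines by -0.17 to 0.01 on the log2 scale at stage 2, by -0.24 to -0.10 at stage 3 and by 0.10 to 0.15 at stage 4. The signs of the bright genes turned from lower in HiPro at stage 3 to higher at stage 4, and the 95% interval of each included 0. For G2 shared at stage 4, the interval ran from -0.29 to 0.51, and for G5 from -0.64 to 0.91.

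G3 was higher in HiPro by 0.95 at stage 2 (95% interval -0.29 to 2.20), by 0.71 at stage 3 (-0.54 to 1.95) and by 0.53 at stage 4 (-0.71 to 1.78), after being 0.72 lower at stage 1. Its signals at stage 3 were 6415, 8897 and 6905 in LoPro and 13535, 13966 and 9043 in HiPro. The interval of G3 was the widest of the 9, and its LoPro arrays of stage 1 ran from 66.5 to 962. Averaged over the 4 stages, 0 of the 9 probesets were called, against 0.0982% of all probesets, and 0 had an unadjusted p under 0.05. G5 was the lowest in HiPro over that mean (-0.34, 95% interval -0.72 to 0.05) and G3 the highest (0.37, -0.25 to 0.99). The fit took the 4 arrays of a pool as independent, so the intervals over that mean can be too narrow.

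**Figure D4:**
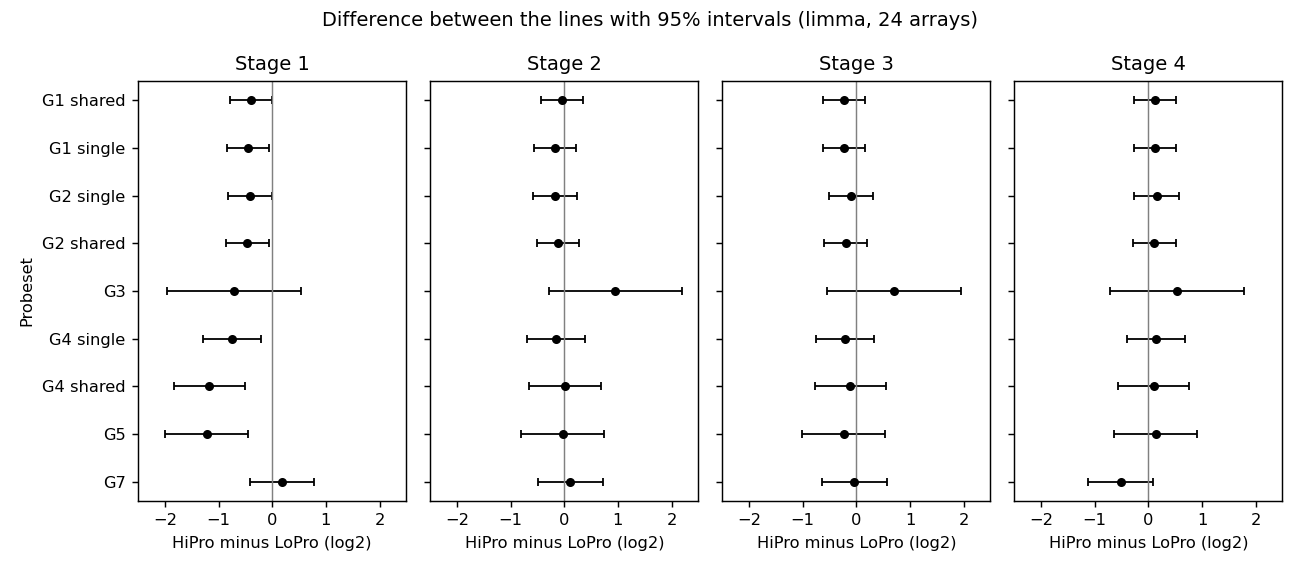
HiPro minus LoPro difference (log2, points) of each glycinin probeset at stages 1 to 4 with the 95% interval of the limma fit over 24 arrays (bars). At stage 1, 8 of 9 points lie below 0, with G5 at -1.22, and by stage 4 the bright probesets lie between 0.10 and 0.53 while G7 is at -0.52.

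The difference between the lines in the rise itself was tested as an interaction. From stage 1 to stage 4, G5 rose by 1.36 more in HiPro than in LoPro on the log2 scale (SE 0.53, unadjusted p = 0.018, adjusted p = 0.98), G4 shared by 1.27 more (SE 0.45, unadjusted p = 0.011, adjusted p = 0.97) and G7 by 0.70 less (SE 0.41, unadjusted p = 0.10). In limma, 0 of the 9 were called and 5 had an unadjusted p under 0.05. Of all 37694 probesets, none was called (0%) and 1862 had an unadjusted p under 0.05. For stages 2 and 3, 0 of the 9 were again called, with 2 and 1 at an unadjusted p under 0.05, against 1556 and 1369 of all probesets. Without LoPro stage 1, replicate 3, G4 shared (1.89 more, adjusted p = 0.0062) and G5 (2.10 more, adjusted p = 0.0062) were called for the rise to stage 4, G4 shared and G5 for that to stage 2 and G4 shared for that to stage 3. The share of all probesets called without that array is not given here.

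The position of replicates within groups was shared by most members. LoPro replicate 3 was the lowest array for 9 of 9 probesets at stage 2, HiPro replicate 3 for 9 of 9 at stage 3, for 8 of 9 at stage 2 and for 7 of 9 at stage 4, and LoPro replicate 1 for 9 of 9 at stage 3. The share of all probesets lowest on those arrays was 39.3%, 32.6%, 43.6%, 40.7% and 39.2%. The 9 probesets therefore moved together from array to array and do not count as 9 separate measurements of a line or a stage.

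Among the other genes that make, carry or accompany storage protein, some lists mostly rose from stage 1 to stage 4, as glycinin did, and others did not. Among the 8 beta-conglycinin probesets, 5 were called higher at stage 4 than at stage 1 in LoPro and 1 lower, and 6 were called higher in HiPro, with median changes of 2.72 and 3.67. Of all probesets, 11.3% in LoPro and 10.7% in HiPro were called higher, and 10.4% and 13.5% lower. The largest fitted rises were those of 3 probesets of the beta subunit (symbol CG-BETA-1 where one is given), the _at probeset, the _s_at probeset with rises of 4.49 in LoPro and 8.66 in HiPro (SE 0.90) and the _a_at probeset with 5.17 and 7.57 (SE 0.81). At stage 1 in LoPro, the _s_at probeset had signals of 6553.7, 1266.5 and 88.6 and the _a_at probeset 2559, 704 and 92.4. Their LoPro rises thus average unlike pools, and no fit without replicate 3 is given for them. The _at probeset had stage 1 signals of 2416, 332 and 6.28 in LoPro. The HiPro signals were 17.3, 15.9 and 7.67, close to the 10th percentile of all signals (14.54), so that the size of its rise is not given, and LoPro replicate 3 again lay with them or below. The probeset that fell in LoPro (-2.05, SE 0.41) was the dimmer one with the symbol CG-1 alone, at 304, 105 and 139 at stage 1. In HiPro it changed by -0.89, which was not called. The brighter probeset with that symbol, at 3482, 1868 and 1425 in LoPro at stage 1, was not called lower in either line. The list's line difference at stage 1 had a median of -0.85, with 0 called.

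The oleosin-type probesets rose together. All 6 were called higher at stage 4 in both lines, with medians of 1.49 in LoPro and 2.37 in HiPro, and 2 probesets described by a peanut oleosin isoform rose most (2.65 and 2.03 in LoPro, 2.95 each in HiPro), followed by 1 described by almond oleosin (1.64 and 2.58). Of the 7 seed coat probesets, 5 were called lower and 2 higher in each line. The shares of all probesets were 11.3% higher and 10.4% lower in LoPro, and 10.7% higher and 13.5% lower in HiPro. ANR1, anthocyanidin reductase of the seed coat pigment pathway, fell by 6.76 in LoPro and by 6.67 in HiPro, and the flavonoid enzyme genes DFR2 (-4.99 and -5.43) and ANS2 (-4.12 and -4.03) fell with it. The pair that rose were HPS, a hydrophobic seed protein (2.19 and 3.75), and Ep, the seed coat peroxidase (1.98 and 1.49). The summed seed coat signal was 39173 to 47553 at stage 1 and 21807 to 25993 at stage 4 in LoPro. In HiPro it was 32447 to 39751 and 19231 to 24976. Whether the share of seed coat and embryo tissue changed, and its part in the rise of glycinin signal, was not tested.

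Of the 4 probesets described as vacuolar sorting receptors, which carry storage proteins towards the vacuole, 4 were called higher at stage 4 in LoPro and 3 in HiPro. The one described by Arabidopsis receptor 7 rose by 3.14 in LoPro and 2.99 in HiPro, the one described by a rice receptor by 2.66 and 2.97 and the one described by Arabidopsis receptor 6 by 2.71 and 2.46. The 13 folding and processing probesets had 1 called higher and 7 lower in LoPro and 1 higher and 4 lower in HiPro, where 11.3% and 10.7% of all probesets were called higher and 10.4% and 13.5% lower. A difference of this list from glycinin was not tested. The gene that rose was VPE, a vacuolar processing enzyme of the type that cuts glycinin precursors, by 1.45 in LoPro and 1.63 in HiPro (SE 0.18). Of the 2 probesets of VPE2, another gene of that family, the _at probeset changed by -2.00 in LoPro, which was called, and by -1.02 in HiPro, which was not (SE 0.48), and the _x_at probeset by -1.85 and -0.97 likewise. LEC1-A, whose Arabidopsis relative is a regulator of embryo maturation, was called lower at stage 4 in both lines (-1.21 and -1.23, SE 0.13).

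The probesets most like glycinin were sought by the Pearson correlation of their log2 signal with the mean of the 9 members, each centred, over the 24 arrays, which share stage and array effects. Among 8666 probesets with 1 gene symbol that are not glycinin or beta-conglycinin, the 5 highest were LOC547942 (r = 0.990), LOC100305847 (0.988), LOX3 (0.988), KTI1 (0.988) and LOC100809384 (0.987). LOX3 encodes a seed lipoxygenase and KTI1 a Kunitz-type trypsin inhibitor. LOX3 rose by 1.24 in LoPro and 2.04 in HiPro from stage 1 to stage 4, and KTI1 by 1.46 and 2.31. Over the 8 means of line and stage, LOC100305847 and KTI1 were among the 5 highest again.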

How the data were processed

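Seed RNA was hybridised to 24 Affymetrix Soy GeneChips. The authors deposited MAS5 signal intensity values on a linear scale, 1 column per array, which per the labels came from MAS5 (version not given in the sources used here). Each array had a mean of about 500 after trimming 2% at each end. The study's own tests used another summary of the arrays, RMA, not used here, so counts can differ for that reason. The table gives no detection or saturation flags, and a saturated probeset would have its rises understated. The number of arrays limits the precision.

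The intensity was taken to log2 with no pseudocount. After 69 control probesets were left out, 37694 probesets were fitted with limma 3.58.1 (R 4.3.3) on the 8 means of line and stage, with 16 residual degrees of freedom, eBayes with a trend and Benjamini-Hochberg adjustment. Calls needed an adjusted p under 0.05 and 1.5-fold. The steps were tested on simulated data. Limma p-values measure the spread between the arrays of a group, each from another plant pool. The main fit has no pool term and takes the 4 arrays of a pool as independent. The members, lists and comparisons were chosen with earlier results of these data known. All members were named, with up to 3 called members of each list by the size of their change from stage 1 to stage 4 and the 5 most correlated probesets with 1 symbol. The lists matched no endosperm probeset and, as first written, no folding or processing probeset. The 13 used were added from gene symbols alone. Gene symbols came from GEO's platform annotation, where 8681 probesets had 1 symbol, 366 several and 28647 none, and 1627 had a description from the study's additional files.

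The methods take the 4 stages of a replicate from the same plants. Same-pool arrays had a mean residual correlation of 0.096 over 36 pairs (-0.005 to 0.29), against 0.080 for arrays of the same number in the other line (48 pairs, -0.060 to 0.22) and -0.043 for arrays of other numbers. The methods describe planting the lines in staggered pairs and harvesting them in parallel, but do not tie replicate numbers to those pairs, so the lines were compared unpaired, with the number as a block as an alternative. Alternatives were quantile normalization, median centring, a floor at 14.54, a filter on the lowest 30%, other estimates of spread, the methods' t-test, replicate blocks, and leaving out each array or pool.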

Additional observations from a re-analysis of the deposited data

How the results depend on the processing

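Counts of glycinin probesets called are for limma unless stated. Shares of all probesets called are given only for the fit to all 24 arrays. LoPro stage 2 against stage 1 gave 1 probeset and fell to 0 with the floor, without the trend, with robust spread, on 2 groups alone and by the methods' t-test. Quantile normalization gave 5 for LoPro stage 3 against stage 1, 1 for LoPro stage 3 against stage 2, and 5 for HiPro stages 3 and 4 against stage 1. On the 2 groups alone, LoPro stages 3 and 4 against stage 1 gave 3 each. The methods' t-test gave 1 each for these, 4 for HiPro stage 3 against stage 1, and 0 for HiPro stage 2 against stage 1 and for stage 3 against stage 2 in both lines. HiPro stage 3 against stage 2 gave 0 without the trend. LoPro stage 3 against stage 2 gave 5 with the plant pool as a replicate block and 5 with the replicate number as a replicate block. No other count moved by over 1.5 times under a block.

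Leaving out 1 array or pool in turn, the LoPro counts ran from 0 to 1 (stage 2 against 1), 5 to 8 (3 against 1), 3 to 8 (4 against 1) and 0 to 6 (3 against 2), and the HiPro counts from 0 to 4, 6 to 9, 8 to 9 and 0 to 4. The line difference at stage 1 ran from 0 to 4, and the interactions from 0 to 2, 0 to 1 and 0 to 2 for stages 2, 3 and 4. Besides LoPro stage 1, replicate 3, LoPro stage 3 against stage 1 fell to 5 without LoPro replicate 2 at all stages. The step from stage 2 to stage 3 in LoPro fell to 0 without that pool and to 1 without any of 4 other pools (LoPro 1 and 3, HiPro 1 and 2) or 4 single arrays (LoPro stage 2 replicates 1 and 3, LoPro stage 3 replicates 2 and 3), and rose to 4 without LoPro stage 2 replicate 2. In HiPro that step fell to 0 without any of 5 pools or 4 arrays (HiPro stage 2 replicates 1 and 3, HiPro stage 3 replicates 1 and 2), and rose to 3 without the pool LoPro 3. The causes were not tested. The comparisons of stage 4 with stage 3 and of the lines at stages 2, 3 and 4 and over their mean gave 0 calls under every alternative run. Of 6408 values of single probesets recomputed, 127 had the other sign, all called in neither fit. The number of onset pairs with 1 order in every pool was 44 of 72, and 54 under quantile normalization. More pairs at the smallest p lower their adjusted p, which is not given here for that setting. No alternative shows how bright probesets near the top of the scanner range would have moved.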
